A study of Mus musculus with 10 samples.

Results

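The potassium channel genes of the mouse brain were taken as all genes whose symbol starts with Kcn, with Kcne2 and Kcnj13 left out. They numbered 90 of 19938 genes with a value. Each was read from a probe set that the platform annotation assigned to that gene alone, and from the brightest one where a gene had several. The 90 genes had 93 such probe sets; Kcna2, Kcnh8 and Kcnma1 had 2 each. Of the 90, 61 encode pore-forming subunits, 10 silent subunits that modify other pores, 16 auxiliary or regulatory proteins, and 3 are antisense transcripts (Kcnd3os, Kcnmb4os1 and Kcnmb4os2).

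Whole brains came from 5 Tg mice, which overexpress Glo1 from a bacterial artificial chromosome, and from 5 WT littermates. All 10 were adult, untreated males on a C57Bl/6J background, and each brain was hybridised to its own Affymetrix array. The labels name neither the copy number of the transgene nor its insertion site. Values are log2 expression values as deposited, so a difference of 1 is a doubling of array signal. In whole brain, fewer cells of a type and less RNA per cell cannot be told apart.

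Potassium channels let potassium leave the cell and so set the resting potential, end the action potential and space successive spikes. Voltage-gated pores (Kcna to Kcnd, Kcnh and Kcnq) open on depolarisation, calcium- and sodium-activated pores (Kcnma, Kcnn and Kcnt) follow intracellular ions, inward rectifiers (Kcnj) pass current best near rest, and the leak channels (Kcnk) stay open at rest. Most pores assemble as tetramers, often with cytoplasmic or membrane partners that change gating or delivery to the membrane, and neurons of different brain regions use different sets of subunits.

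Glo1 was 2.84-fold higher in Tg, and no Tg value overlapped a WT value. The mean of the neuronal, astrocyte and oligodendrocyte marker lists was at least 10.22 on every array. The array titled WT brain, biological rep2 (WT replicate 2) stood apart. The mean of 12 measured cerebellar markers out of 14 listed was 8.14 there, against 10.56 to 10.68 on the other 4 WT arrays and 10.35 to 10.49 on the Tg arrays, and all 12 were lowest on it. The astrocyte mean was 10.22 there, against 10.33 to 10.41 on the other arrays, and 4 of 6 astrocyte markers were lowest on it. Pituitary markers (4 of 5 measured) averaged 11.11 on it, against 6.59 to 6.73 on the other WT arrays. Tg replicate 2 also read 10.66 for that list, while the other Tg arrays lay between 6.63 and 7.06. Alas2, an erythroid gene, was 1.52 higher on WT replicate 2 than the mean of the other WT arrays, and 4 of 6 striatal markers, those measured, averaged 0.22 higher. The striatal mean was 10.62 to 10.66 on the Tg arrays and 10.68 to 10.72 on the other WT arrays. A genotype difference in this mean was not tested, and 0 of its 4 measured markers passed a limma adjusted p of 0.05. The olfactory bulb mean was 7.90 to 8.63 on the Tg arrays and 7.68 to 8.08 on the other WT arrays. The part of such tissue content in the Tg minus WT differences was not tested.

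The brain level of the channel genes is described first, against the values of all genes and not gene against gene, since probe sets differ in how brightly they report the same amount of RNA. All 19938 genes were divided by mean value into 3 groups of equal size, called dim (up to 7.30 log2 units), middle, and bright (above 9.15). The channel genes lay mostly on the bright side: 44 were bright, 27 middle and 19 dim. Their median was 9.15, against 8.26 over all genes.

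Among Shaker-type pores, 5 of 8 Kcna genes were bright. Kcna1 and Kcna2, which form axonal and presynaptic channels, read 11.29 and 11.56 on average over the 10 arrays. Kcna3, Kcna4 and Kcna6 ranged from 9.56 to 9.80. Kcna5, Kcna7 and Kcna10 were dim, at 6.83 to 7.28. The cytoplasmic beta subunits that bind Kcna pores were all bright, with Kcnab1 at 10.92, Kcnab2 at 11.52 and Kcnab3 at 9.40. Kcnb2, a delayed rectifier, read 9.62. The Kcnc genes, whose fast channels serve high-frequency firing, were bright as well: Kcnc1 read 10.50, Kcnc2 10.29 and Kcnc4 9.63.

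The A-type pore Kcnd2, which limits the back-spread of action potentials into dendrites, read 11.83, while Kcnd3 read 9.88 and Kcnd1 8.18. Their calcium-binding partners, the Kcnip genes, were bright in 4 of 4 cases. Kcnip3 read 12.07, Kcnip4 11.28, Kcnip1 10.01 and Kcnip2 9.49. Of the ether-a-go-go family, 5 of 7 Kcnh genes were bright, with Kcnh1, Kcnh5 and Kcnh7 at 10.50 to 10.72, and Kcnh8 was dim at 7.22. The M-current subunits Kcnq3 and Kcnq5 read 10.67 and 10.80. Kcnq1, best known from heart and epithelia, read 7.36.

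Silent subunits do not form channels alone. Kcnv1 read 10.54, Kcng1 9.55 and Kcnf1 9.50, all bright. The 3 Kcns genes ranged from 8.47 to 8.59 and Kcng2, Kcng3 and Kcng4 from 8.49 to 8.97. Kcnv2, a photoreceptor gene, read 6.97. Of the single-span Kcne subunits, 3 of 4 were dim, at 6.09 to 6.78, and Kcne1l read 8.05.

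Of the inward rectifiers, 4 of 14 Kcnj genes were bright. Kcnj10, the astrocyte channel for potassium buffering, read 11.26, and its frequent partner Kcnj16 read 8.99. Among G protein-gated subunits, Kcnj3 and Kcnj9 were bright at 11.13 and 9.40, Kcnj6 was middle at 8.80 and Kcnj5 dim at 7.01. The ATP-sensitive pores Kcnj11 and Kcnj8 were middle at 8.80 and 8.16. Kcnj1, known from kidney, and Kcnj14 were dim at 6.17 and 6.39.

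Of the leak channels, 6 of 14 were bright. Kcnk1 read 11.05, and the acid-sensitive Kcnk9 and Kcnk3 read 10.30 and 9.64. Of the stretch- and lipid-gated channels, Kcnk2 read 9.35 and Kcnk4 9.49, both bright, and Kcnk10 9.15. Kcnk5, Kcnk7 and Kcnk18 were dim, at 6.03 to 7.15. Among calcium- and sodium-activated pores, Kcnma1 read 11.38, Kcnn3 9.72, Kcnn2 9.54, Kcnt1 10.17 and Kcnt2 10.07. The intermediate-conductance pore Kcnn4 was dim at 7.28. Kcnmb4, the neuronal partner of Kcnma1, read 9.14, and Kcnmb1 to Kcnmb3 ranged from 7.61 to 8.07. Kcnu1, a sperm channel, read 6.09 and the soluble regulator Kcnrg 6.98.

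**Figure D1:**
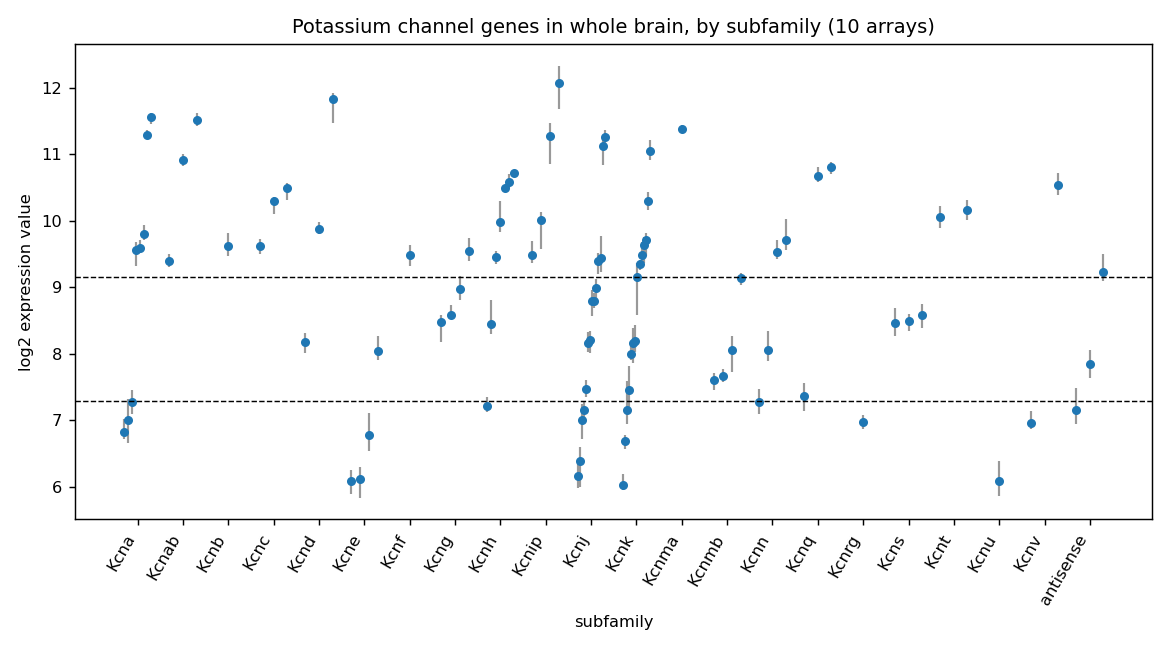
Mean log2 value of each of the 90 genes over 10 arrays (points) by subfamily, with the lowest to highest array as a line and dashed lines at the bounds of the dim and bright groups of all genes (7.30 and 9.15). Kcnd2, Kcnip3 and Kcnma1 lie well above the upper line, while 3 of 4 Kcne genes and Kcnu1 lie below the lower one.

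Levels were steady between brains. Over the 9 arrays other than WT replicate 2, the highest and lowest values of a member lay 0.26 log2 units apart in the median, the same as over all genes (0.26). Kcnh1 spanned the least (0.080). Kcnip3, which encodes a calcium sensor that also acts in the nucleus, spanned the most among bright members (0.43). It read 12.12, 11.92, 12.32, 12.09 and 11.96 on Tg replicates 1 to 5 and 11.91, 11.68, 12.23, 12.34 and 12.16 on WT replicates 1 to 5. Both genotypes held high and low brains, and the lowest value of all was on WT replicate 2.

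Several channel genes departed from the other WT arrays on WT replicate 2. Of the 90, 16 had their lowest value of 10 arrays there and 44 their highest, against 16.3% lowest and 37.3% highest over all genes. As shares of the 90 these counts were 17.8% and 48.9%. By size, 12 members lay more than 0.2 below the mean of the other 4 WT arrays and 28 more than 0.2 above it, against 12.2% and 28.1% of all genes. The share lowest was near the background, and the members low there are described one by one and not as a property of the family. The array was singled out from its measured values and has no replicate, so these departures carry no test.

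Kcnk10, a leak channel gated by stretch and lipids, lay furthest below. It read 9.18, 9.17, 9.07, 9.15 and 9.17 on the Tg arrays, 9.25, 9.37, 9.36 and 9.20 on WT replicates 1, 3, 4 and 5, and 8.59 on WT replicate 2. That array was -0.71 log2 units from the mean of the other WT arrays, or 61.1% of it on a linear scale, and outside the range of the other 9 arrays. The related Kcnk2 and Kcnk4 did not share this, at 0.04 and 0.22. The acid-sensitive Kcnk3 read 9.37 on WT replicate 2 against 9.59 to 9.76 on the other 9 arrays. Kcnk9, its close relative, read 10.31, inside the range of the other 9 (10.17 to 10.44).

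The A-type pore Kcnd2 and 3 of its 4 Kcnip partners had their lowest value on this array. Kcnd2 and all 4 Kcnip genes are bright, and 32.0% of all bright genes were lowest there. Kcnd2 and these 3 were also among the 8 members chosen as furthest below, so the count is not read as a pattern of the channel complex. Kcnd2 read 11.88, 11.89, 11.87, 11.87 and 11.83 in Tg, 11.80, 11.88, 11.92 and 11.91 on the other WT arrays and 11.47 on WT replicate 2, which was 75.6% of the WT mean without it. Kcnd1 and Kcnd3 were not low on that array, at 0.17 and 0.07 from the other WT arrays. Kcnip4 read 11.42, 11.20, 11.40, 11.24 and 11.17 in Tg, 11.38, 11.41, 11.47 and 11.28 on the other WT arrays and 10.86 on WT replicate 2. Kcnip1 read 10.12, 9.995, 10.11, 10.10 and 9.93 in Tg, 10.02, 10.13, 10.05 and 10.03 on the other WT arrays and 9.58 on WT replicate 2. Against the other WT arrays, WT replicate 2 stood at 69.3% for Kcnip4, 71.8% for Kcnip1 and 71.7% for Kcnip3. Kcnip2 went the other way and was highest of the 10 arrays, at 9.69 against 9.37 to 9.62.

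Kcnj3, the G protein-gated subunit that pairs with Kcnj6 or Kcnj9, read 11.19, 11.02, 11.24, 11.16 and 11.14 in Tg, 11.16, 11.21, 11.20 and 11.16 on the other WT arrays and 10.84 on WT replicate 2. Its partners were not low with it: the difference was 0.10 for Kcnj6 and 0.06 for Kcnj9. Kcng4, a silent subunit, read 8.19 there and 8.46 to 8.59 elsewhere. The remaining 8 members lowest on this array were Kcnc1, Kcnj16, Kcnj12, Kcnk12, Kcna2, Kcnk1, Kcnmb1 and Kcnrg, with differences of -0.27 to -0.13. The departures of the 16 were smaller than that of the cerebellar marker mean, at -2.49. The pituitary, erythroid, striatal and astrocyte values above moved with the same array, and their part in the channel values was not tested.

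**Figure D2:**
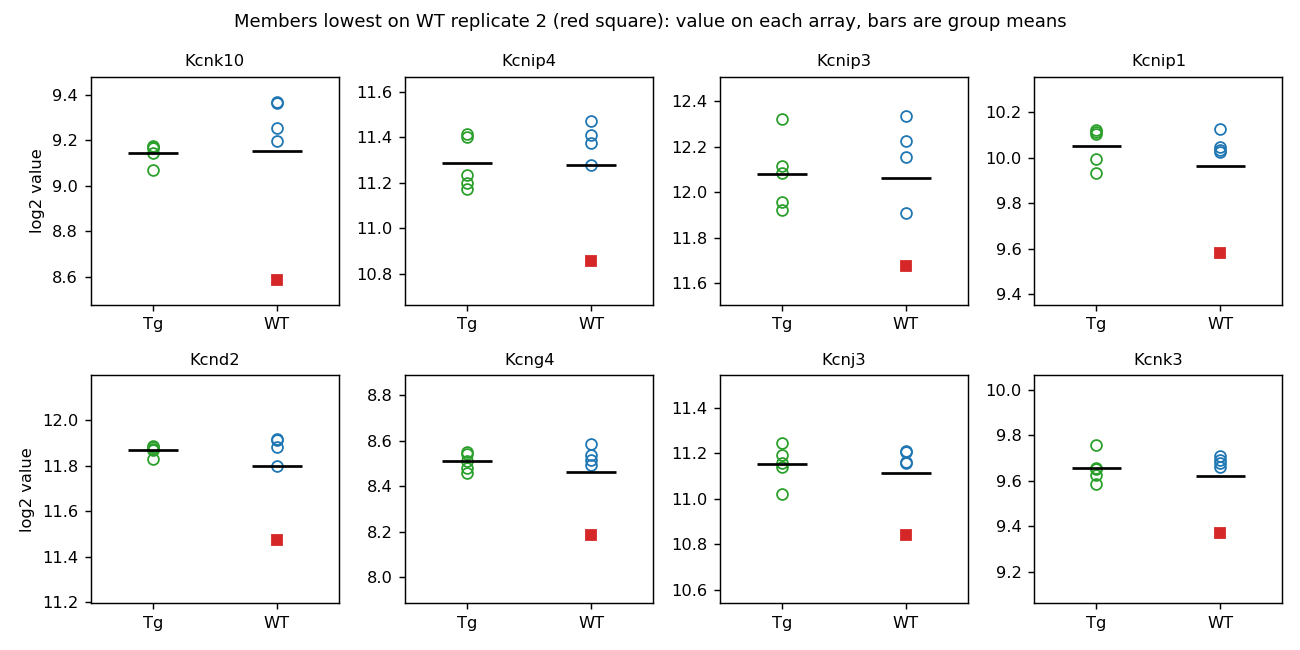
Log2 value on each array of the 8 genes furthest below the other WT arrays on WT replicate 2, with Tg arrays in green, WT arrays in blue, WT replicate 2 as a red square and group means as bars; every panel spans 1 log2 unit. In each panel the red square lies below all 9 other arrays, and the Tg points overlap the other WT points in 7 panels; for Kcnk10 all 5 Tg values lie below the other 4 WT values.

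Of these 8 genes, RefSeq lists a single transcription start for 3, Kcnd2, Kcnj3 and Kcng4. The 250 bases upstream of that start are shown for these 3, which were low on the same array (GRCm38.p6). Shared control of these genes was not tested. Kcnip1, Kcnip3, Kcnip4 and Kcnk10 have several listed starts, and no window is shown for Kcnk3. Capitals mark matches to any of 4 short motifs searched on both strands: the E-boxes CAGCTG and CAGATG, the GC box GGGCGG and the TATA box TATAAA. Kcnd2 lies at chr6:21215096-21215345, plus strand. Kcnj3 lies at chr2:55435720-55435969, plus strand. Kcng4 lies at chr8:119635681-119635930, minus strand.
Kcnd2: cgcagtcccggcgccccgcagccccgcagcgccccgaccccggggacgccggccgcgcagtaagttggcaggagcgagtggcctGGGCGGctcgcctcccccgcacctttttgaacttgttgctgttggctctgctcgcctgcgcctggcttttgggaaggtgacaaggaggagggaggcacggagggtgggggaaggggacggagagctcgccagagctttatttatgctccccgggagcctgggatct
Kcnj3: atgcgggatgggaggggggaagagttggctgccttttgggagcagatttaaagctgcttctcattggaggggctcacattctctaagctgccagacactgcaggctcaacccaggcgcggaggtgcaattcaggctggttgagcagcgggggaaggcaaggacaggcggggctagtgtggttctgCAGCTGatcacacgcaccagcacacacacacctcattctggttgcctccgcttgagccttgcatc
Kcng4: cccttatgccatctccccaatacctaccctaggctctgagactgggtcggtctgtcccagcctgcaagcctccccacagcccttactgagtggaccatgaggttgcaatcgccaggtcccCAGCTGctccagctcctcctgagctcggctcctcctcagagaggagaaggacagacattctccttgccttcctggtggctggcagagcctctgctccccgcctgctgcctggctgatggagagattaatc
Kcnj3 and Kcng4 each hold the E-box CAGCTG, and Kcnd2 holds the GC box. CAGCTG occurred in 4271 of all 32851 RefSeq windows of this length and in 21 of the 92 windows of channel genes, which came from 68 of the 90 genes. GGGCGG occurred in 32.7% of all windows and in 44.6% of those of channel genes, CAGATG in 14.4% and 14.1%, and TATAAA in 12.4% and 2.17%. The channel windows were richer in G and C, with a median of 58.8% against 52.4%, and a gene with several starts counts once for each, so these shares are descriptions.

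Many other members read high on WT replicate 2, and so did the array as a whole. Over all genes its values lay 0.08 above the other WT arrays in the median, and the 90 channel genes 0.12. Of 19 dim channel genes, 13 were highest on this array and 1 lowest (50.1% and 2.57% of all dim genes), with a median of 0.24 against 0.19 over all dim genes. Of 27 middle ones, 13 were highest and 5 lowest (39.0% and 14.3%). Of 44 bright ones, 18 were highest and 10 lowest (22.9% and 32.0%), with a median of 0.06 against -0.04 over all bright genes. Centring each array on its median lowered the count of members highest on this array from 44 to 25 and raised the count lowest from 16 to 21. Over all genes the shares were then 22.7% highest and 26.1% lowest.

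The 5 members that stood furthest above were all dim or middle: Kcnk7 (0.53), Kcnk16 (0.53), Kcne4 (0.48), Kcna7 (0.44) and Kcnu1 (0.42). Kcnh4, the next in order, stood at 0.42, and Kcnj16, the next below the 8 lowest, at -0.27. After quantile normalization Kcne4 stood at 0.30, Kcna7 at 0.27 and Kcnu1 at 0.20. Kcnk7 read 7.59 on WT replicate 2 against 6.94 to 7.26 on the other 9 arrays. Bright members more than 0.3 above were Kcnj4, Kcnn3, Kcnh3 and Kcnd3os, which were chosen after their values were seen. Kcnj4, an inward rectifier of forebrain neurons, read 9.38, 9.41, 9.57, 9.53 and 9.24 in Tg, 9.48, 9.33, 9.31 and 9.36 on the other WT arrays and 9.77 on WT replicate 2. Kcnh3, a forebrain member of the ether-a-go-go family, read 10.30 there against 9.84 to 10.005 elsewhere. Kcnn3, a small-conductance calcium-activated pore, read 10.04 against 9.57 to 9.80. Kcnd3os, antisense to Kcnd3, read 9.50 against 9.10 to 9.39, while Kcnd3 itself differed by 0.07.

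**Figure D3:**
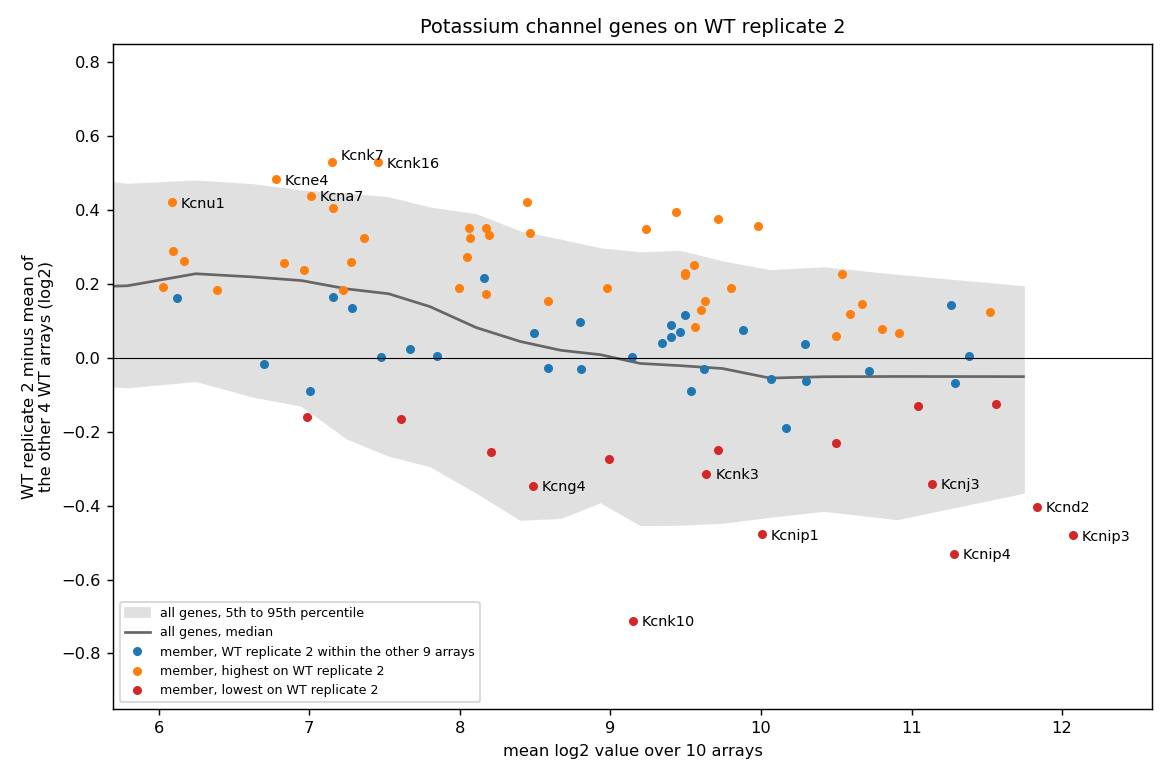
Value on WT replicate 2 minus the mean of the other 4 WT arrays (log2, vertical) against mean log2 value over 10 arrays (horizontal) for the 90 genes, coloured by whether WT replicate 2 was the lowest (red), the highest (orange) or neither (blue) of 10 arrays. The grey line and band give the median and the 5th to 95th percentile of all genes in 20 bins of level; Kcnk10, Kcnip4, Kcnip3, Kcnip1 and Kcnd2 are the 5 lowest points, and the grey line lies above 0 at low levels and below 0 at high ones.

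Tg and WT brains were then compared for every member. None of the 90 genes passed the threshold of a limma adjusted p of 0.05, with adjustment over 28944 probe sets, of which 10 passed (0.0345%), 2 higher in Tg (0.00691%) and 8 lower (0.0276%). At an unadjusted p under 0.05, 0 channel genes were higher in Tg and 2 were lower, Kcna4 and Kcnk9, against 0.958% higher and 1.02% lower of all genes. The differences of the 90 ran from -0.13 to 0.15, with 47 genes higher and 43 lower (47.2% of all genes were higher) and a median of 0.01, against -0.0034 over all genes. For 58 members the 95% confidence interval lay within 0.2 log2 units of 0, and for 84 within 0.3. The widest bounds were -0.34 for Kcnj14 and 0.34 for Kcnk16. For none of the 90 did the 5 Tg values lie wholly above or wholly below the 5 WT values; over all genes this held for 0.155% and 0.316%.

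Kcna4, an A-type Shaker pore of axons, had the lowest mean difference. It read 9.64, 9.53, 9.47, 9.51 and 9.32 on Tg replicates 1 to 5 and 9.58, 9.69, 9.63, 9.64 and 9.58 on WT replicates 1 to 5. Tg replicate 5 was the lowest and Tg replicate 1 lay within the WT values. Means were 9.49 ± 0.12 in Tg and 9.62 ± 0.046 in WT (SD, n = 5 each), a difference of -0.13 (-0.26 to -0.01; limma adjusted p = 0.9998, two-sided exact permutation p = 0.0476). Kcnk9, an acid-sensitive leak channel known from cerebellar granule cells, read 10.32, 10.17, 10.21, 10.17 and 10.34 in Tg and 10.42, 10.31, 10.39, 10.44 and 10.25 in WT, so the groups overlapped. Its difference was -0.12 (-0.24 to -0.01; limma adjusted p = 0.9998, exact permutation p = 0.0556). The mean of the 12 cerebellar markers was lower on every Tg array than on the 4 WT arrays other than replicate 2, which held for 6 of the 12 markers one by one, and their part in the Kcnk9 value was not tested.

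Kcnab1, a beta subunit, read 10.88, 10.92, 10.82, 10.83 and 10.92 in Tg and 10.98, 11.01, 10.93, 10.94 and 10.91 in WT. The highest Tg values overlapped the lowest WT value. It differed by -0.08 (limma adjusted p = 0.9998, exact permutation p = 0.0317). Kcnk2, the leak channel related to Kcnk10, differed by -0.07 (limma adjusted p = 0.9998, exact permutation p = 0.0476). Kcnj9 differed by -0.08 (limma adjusted p = 0.9998, exact permutation p = 0.143). These genes were chosen for a low p on the same arrays, and the permutation p values are not adjusted for that choice. On the higher side the lowest p values belonged to Kcne1, Kcnq1, Kcne3, Kcnab3 and Kcnj5. Kcne1, an auxiliary subunit that slows Kcnq1, differed by 0.13 (-0.01 to 0.27) and Kcnq1 by 0.13 (-0.02 to 0.28). Kcne3 differed by 0.15, Kcnj5 by 0.13 and Kcnab3 by 0.07. For each of these 5 the groups overlapped and none passed the threshold. Kcne1, Kcne3 and Kcnj5 were dim.

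Leaving out WT replicate 2 still called none of the 90, with 11 probe sets called in all (0.038%), 2 higher in Tg (0.00691%) and 9 lower (0.0311%), and a lowest adjusted p of 0.407 among members. At an unadjusted p under 0.05 the members then numbered 11 higher and 2 lower, or 12.2% and 2.22% of the 90, against 7.19% and 3.56% of all genes. The sign of the difference changed for 27 of the 90, and 52 were then higher in Tg, beside 53.3% of all genes. Kcnq1 read 7.45, 7.37, 7.40, 7.42 and 7.50 in Tg and 7.30, 7.56, 7.14, 7.23 and 7.27 in WT, and without replicate 2 all 5 Tg values lay above the 4 WT values, by 0.19 on average (0.09 to 0.29; limma adjusted p = 0.407). Kcne1 read 6.14, 6.12, 6.16, 6.23 and 6.15 in Tg and 5.93, 6.26, 6.03, 5.89 and 6.02 in WT, with a difference of 0.19 without replicate 2 (0.09 to 0.29; limma adjusted p = 0.407). Kcne4 and Kcnk16 differed by 0.20 and 0.21 in that fit, against 0.11 and 0.11 with all arrays. Of the 11, 10 were dim or middle, and 8 were highest on WT replicate 2. Genes given with an interval from this fit, Kcnk10 below included, were chosen for a low p on these same arrays. WT replicate 2 was left out after its values were seen, and the intervals are not adjusted for either choice.

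Kcnk10 was the 1 member whose Tg values all lay below the 4 other WT values, against 1.24% of all genes. Its difference was -0.01 with all arrays (-0.29 to 0.27; limma adjusted p = 0.9998) and -0.15 without WT replicate 2 (-0.25 to -0.05; limma adjusted p = 0.407). Some cerebellar markers, among them Gabra6 and Cbln1, were likewise lowest on WT replicate 2 with all Tg values below the 4 other WT values. Others, such as Pcp2 and Fat2, had Tg values that overlapped them. The part of cerebellar content in the Kcnk10 value was not tested. Kcna3, Kcne1, Kcnq1 and Kcns3 were the 4 members whose Tg values all lay above the 4 other WT values (2.10% of all genes). Without WT replicate 2, Kcnk9 differed by -0.14 (limma adjusted p = 0.426), Kcna4 by -0.11 and Kcna1 by -0.07 (-0.06 with all arrays). For the other genes low on WT replicate 2 the difference without it was -0.10 for Kcnip4, -0.08 for Kcnip3, -0.01 for Kcnd2, -0.0048 for Kcnip1, -0.03 for Kcnj3, -0.03 for Kcnk3 and -0.02 for Kcng4. With all arrays these 7 had differences of 0.01 to 0.09.

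**Figure D4:**
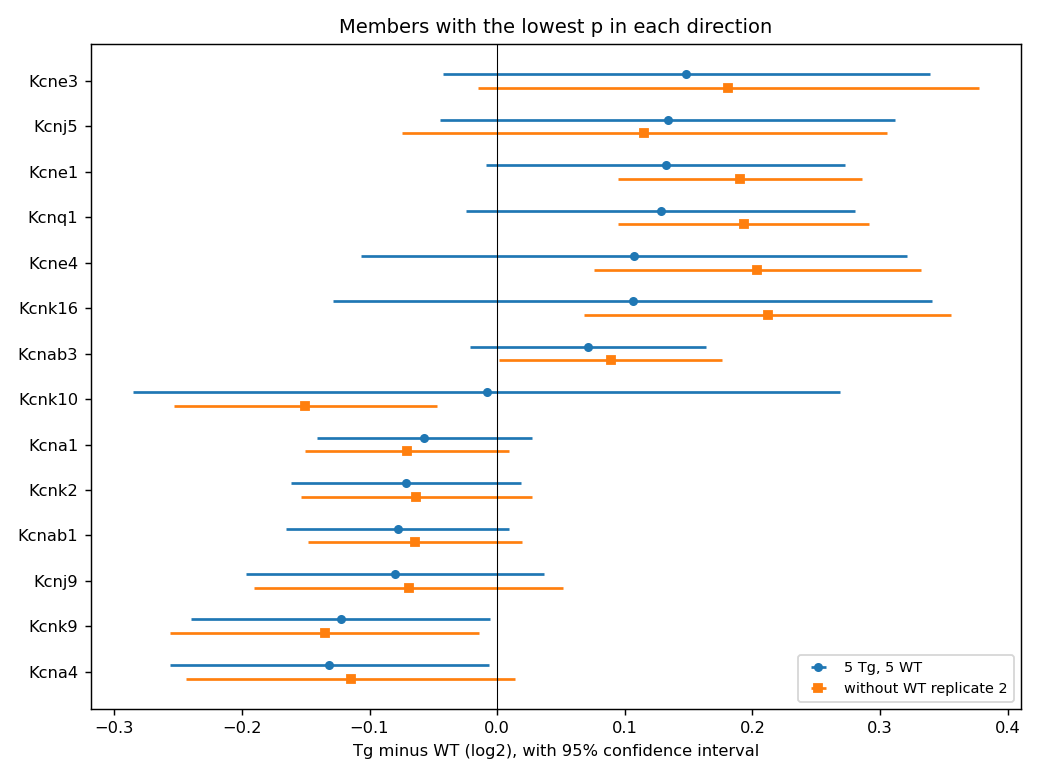
Tg minus WT difference in log2 units with its 95% confidence interval for the 14 genes with the lowest p in each direction, from all 10 arrays (blue circles) and without WT replicate 2 (orange squares). Most intervals from all arrays cross 0, and Kcnk10 moves from -0.01 to -0.15 with a much narrower interval when that array is left out.

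Among subfamilies with more than 1 member, Kcne had the highest median difference, 0.12 (0.19 without WT replicate 2), with 3 of 4 genes higher in Tg and 0 past the threshold. Of these 4 genes 3 were dim, and dim genes in general leaned the same way. Over all 6646 dim genes the median was 0.02, with 4130 higher in Tg. Without WT replicate 2 it was 0.06, with 5194 higher. Both Kcnt genes, the sodium-activated pores, had lower means in Tg, at -0.07 for Kcnt1 and -0.06 for Kcnt2. The median was -0.01 over 8 Kcna, 0.01 over 4 Kcnip, -0.01 over 7 Kcnh, -0.0039 over 14 Kcnj and 0.02 over 14 Kcnk genes. It was -0.0041 over pore-forming, 0.02 over silent and 0.01 over auxiliary subunits. Without WT replicate 2 the medians were -0.01 for Kcna, -0.04 for Kcnip, 0.0045 for Kcnh, -0.01 for Kcnj and 0.04 for Kcnk genes. They were then 0.01 over pore-forming, 0.05 over silent and 0.01 over auxiliary subunits. The sign of the Kcnip, Kcnh and pore-forming medians thus turned with 1 array, and no group was tested.

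In gene order, the member nearest to Glo1 was Kcnh8, with 382 measured genes between, at a difference of 0.04 (-0.09 to 0.16). Among measured genes, 22 members had another member as a direct neighbour. Kcnip1 and Kcnmb1 adjoin and were both lowest on WT replicate 2, at -0.48 and -0.17 from the other WT arrays. Kcnk5 and Kcnk16 also adjoin, at -0.02 and 0.53.

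Second probe sets were read beside the brightest. Between Tg and WT the dimmer Kcna2 probe set differed by -0.08 and the brighter by 0.0041, and the Kcnh8 probe sets by 0.04 and 0.04. For Kcnma1 the brighter probe set was 0.0039 from the other WT arrays on WT replicate 2. The dimmer one read 4.99 there, against 5.46 to 5.83 on the other 9 arrays. Which transcripts these probe sets report was not tested.

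Genes outside the Kcn symbols that bind or anchor these channels, or belong to the related Hcn family, were read as a list of 32, of which 30 had a value. None passed the threshold, with 13 higher and 17 lower in Tg and a median of -0.01. Lrrc55, an auxiliary subunit of the Kcnma1 channel, was the 1 partner at an unadjusted p under 0.05, with a difference of 0.14. On WT replicate 2, 8 partners were lowest and 6 highest of the 10 arrays, or 26.7% and 20% of the 30. Of the 30, 21 were bright, and the shares over all bright genes were 32.0% and 22.9%. Lgi1, a secreted ligand that acts on Kcna complexes, was furthest below the other WT arrays (-0.37), followed by its receptor Adam22 (-0.31) and by Dpp10 (-0.30). Dpp10 and Dpp6 bind Kcnd pores beside the Kcnip proteins, and Dpp6 differed by -0.04. The sulfonylurea receptors Abcc8 and Abcc9, partners of Kcnj11 and Kcnj8, differed between Tg and WT by 0.0018 and -0.03, beside -0.02 for Kcnj11 and 0.07 for Kcnj8.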

How the data were processed

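Expression was measured on 1 Affymetrix array per mouse. Per the submitters' processing notes, Affymetrix Expression Console 1.1.2 was used, and its settings were not stated there. Values in the deposited table are on a log2 scale (3.28 to 14.7 over 35556 rows) and were not normalized again. A leading run of 6612 low identifiers was treated as control rows and dropped, leaving 28944 probe sets. Of these, 21789 had 1 gene in the platform annotation, 1621 several and 5534 none here; 21698 matched GRCm38.p6 symbols by Entrez identifier, and a gene with several probe sets was represented by the one with the highest mean.

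The genotypes were tested with limma 3.58.1 (lmFit, eBayes) in R 4.3.3 over all probe sets, with Benjamini-Hochberg adjustment and a threshold of 0.05. Single genes also had exact permutation tests, whose p values were not adjusted. On simulated data for Tg against WT over 28944 probe sets, 88% of changes of 0.5 and 99% of changes of 1 were recovered. There were 16 false calls. The channel genes differed by only -0.13 to 0.15, and recovery of changes that small was not tested. These rates therefore do not show whether such small changes would have been called. The number of arrays limits the precision, and array signal can understate true ratios.

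Genes and lists were chosen with earlier results of these data known. Text names the brightest gene of each subfamily, the 8 lowest and 5 highest on WT replicate 2, and the genes of lowest p in each direction with all arrays (5 each) and without that array (4 each); other genes are given by level, range or as named. Alternatives covered between-array scaling, filters on dim probe sets, array weighting, robust variance, blocking on replicate number, averaging probe sets, and leaving out each array. Promoter windows came from RefSeq's GRCm38.p6 table.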

Additional observations from a re-analysis of the deposited data

Results flagged for a closer look

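Single arrays stood far from the rest of their group of 5 for 10 of 86 gene and group pairs examined among the 43 named genes, by Dixon's ratio of gap to range (above 0.71). Chance alone marks about 1 in 20 such groups, but that rate is no yardstick here. Genes on 1 array are not independent, and the named genes include 13 chosen for their departure on WT replicate 2. The 7 instances on that array are all among these 13 and restate that choice. On it Kcnd2 read 11.47, Kcng4 8.19, Kcnip1 9.58, Kcnj3 10.84, Kcnk10 8.59 and Kcnk3 9.37, all below the other WT arrays. Kcne4 read 7.11 there, above 6.53 to 6.70 on the other WT arrays. Kcnb2 read 9.69 on WT replicate 3, against 9.59 to 9.61 on the others. In the Tg group, Kcnc1 read 10.58 on Tg replicate 2 (others 10.47 to 10.50) and Kcnh1 10.69 on Tg replicate 1 (others 10.72 to 10.74).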

How the results depend on the processing

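None of the 90 channel genes passed the threshold with all arrays or under any of 18 alternatives (limma; lowest adjusted p 0.407, without WT replicate 2). The median difference stayed within the spread between arrays in all 18, from 0.0022 to 0.014 with single arrays left out, and was -0.0038 among the upper 60% of probe sets. The count at an unadjusted p under 0.05 was 2 with all arrays and 0 to 13 with single arrays left out; the 13 came without WT replicate 2, it was 4 without WT replicate 5, 1 without Tg replicate 2 or WT replicate 1, and 0 without Tg replicate 3, Tg replicate 4, WT replicate 3 or WT replicate 4. It was 8 with array weights. With the replicate number as a block it was 1; same-numbered Tg and WT arrays did not deviate together throughout (correlations of -0.47 to 0.45), so the number was not taken as a pairing. Of 240 single-gene differences under the alternatives, 234 kept their sign and their side of the threshold and 6 changed sign, all of Kcnk10, which was 0.020 after quantile normalization and ran from -0.15 to 0.046 with single arrays left out. Among the upper 30% of probe sets, 44 members remained, of which 10 were lowest and 18 highest on WT replicate 2. As shares these were 22.7% and 40.9%, against 17.8% and 48.9% of the 90. After median centring 25 of the 90 were highest. Quantile normalization left 18 lowest and 36 highest. The 13 named departures on that array kept their direction under both scalings, but 14 of the 26 values moved by more than the SD of the other 4 WT arrays; quantile normalization lowered Kcnu1 from 0.42 to 0.20, Kcna7 from 0.44 to 0.27 and Kcne4 from 0.48 to 0.30.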
